A study of Homo sapiens with 15 samples.

Results

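Sterol synthesis in ZR-75-1 cells was followed through 10 genes, HMGCS1, MVD, IDI1, FDPS, SQLE, MSMO1, DHCR7, SREBF2, INSIG1 and STARD4. They were taken by gene symbol from the platform annotation, which gave 11 of the 14841 probe sets with 1 symbol, or 10 of 14361 genes. FDPS had 2 probe sets, 16671738 and 16694176, which are described separately, and each of the other genes had 1.

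ZR-75-1 is a line of human breast cancer cells of luminal type that carry estrogen receptor. The cells grew in regular medium with 10% FBS and received MPA, PROG, DHT or DEX at 10 nM, or the vehicle (ethanol at 0.1%), for 6 h. Their total RNA was hybridised to 15 Affymetrix arrays, with 3 arrays in each of the 5 groups. The abbreviations are usually read as medroxyprogesterone acetate, a synthetic progestin, progesterone, the androgen dihydrotestosterone and the synthetic glucocorticoid dexamethasone; the labels do not spell them out. The vehicle samples are also called untreated, and neither the solvent of the treated cells nor any removal of steroids or lipoproteins from the serum is given in the sources used here. All groups are 1 cell line at 1 dose and 1 time. Whether the 3 arrays of a group stem from separate cultures is not stated in the labels; the p-values therefore rest on a spread between arrays that could be technical.

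Cholesterol is built in the endoplasmic reticulum from acetyl-CoA by way of mevalonate, farnesyl diphosphate and squalene. The pathway is controlled by sterol level. When membranes are poor in sterol, the escort protein SCAP carries the transcription factor SREBP-2, the product of SREBF2, to the Golgi, where it is cut and released to switch on the genes of the pathway. When sterol is plentiful, the INSIG proteins hold SCAP back, and most of the 10 genes, INSIG1 and SREBF2 among them, are known SREBP targets. Breast cancer cells use the pathway for membranes and for prenyl groups on signalling proteins.

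SREBP works at its targets together with the general factors NF-Y and Sp1, so the windows around the start sites were searched for the letters of these elements. RefSeq promoter windows (GRCh38.p14, 250 bases before to 50 after a start) were used for 9 of the genes, with 13 windows; SQLE was the other gene. Shown are SREBF2, the window with a match to the sterol element, and the first window of DHCR7, the gene with the only called difference from vehicle. The sequences run 5′ to 3′, with every motif match on either strand in capitals. SREBF2 lies on the plus strand at chr22:41832855-41833154 and DHCR7 on the minus strand at chr11:71448344-71448643.
SREBF2: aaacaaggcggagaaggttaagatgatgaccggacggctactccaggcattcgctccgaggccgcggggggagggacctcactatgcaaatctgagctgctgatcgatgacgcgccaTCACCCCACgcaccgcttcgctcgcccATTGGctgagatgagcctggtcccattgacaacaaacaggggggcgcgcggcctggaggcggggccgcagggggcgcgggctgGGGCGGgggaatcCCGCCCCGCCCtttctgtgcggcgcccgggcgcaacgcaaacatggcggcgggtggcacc
DHCR7: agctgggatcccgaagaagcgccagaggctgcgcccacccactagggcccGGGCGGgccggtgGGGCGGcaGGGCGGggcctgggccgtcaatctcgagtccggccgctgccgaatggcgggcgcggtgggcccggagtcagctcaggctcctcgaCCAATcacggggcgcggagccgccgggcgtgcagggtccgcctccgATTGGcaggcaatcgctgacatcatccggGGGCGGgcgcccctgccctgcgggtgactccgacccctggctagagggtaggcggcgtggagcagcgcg
The sterol element core TCACNCCAC was found in 1 of the 13 windows, as TCACCCCAC in SREBF2 with its first base at position -133 from the start, against 1.13% of 35116 windows of 300 bases. CCAAT, the NF-Y box, was in 10 of the 13 windows, against 34.6% of all windows, and these windows cover all 9 genes. GGGCGG, the Sp1 box, was in 12 windows of the same 9 genes, against 45% of all windows, and neighbouring matches can overlap. An inverted repeat as bound by the progesterone, androgen and glucocorticoid receptors (AGAACA, any 3 bases, TGTTC) was in 0 of the 13 windows and in 0.0114% of all windows. The shares are per window and do not apply to counts of genes, and some windows of HMGCS1 and of IDI1 overlap each other. A match is a match of letters only, and its absence says only that the letters are not in these windows.

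The arrays measured the genes in cells of luminal type. All 8 measured of 9 luminal markers averaged above the median of all deposited values (3.7 on the log2 scale), and 0 of 4 measured basal markers and 0 of 2 measured adipocyte markers did. LUM at 4.06 and CD68 at 7.71 were the exceptions among 2 fibroblast and 2 blood or endothelial markers measured. The steroid-induced gene FKBP5, a check of treated against vehicle labels, was higher than in vehicle cells by 2.16 with MPA, 1.85 with PROG, 0.93 with DHT and 1.26 with DEX on the log2 scale (limma adjusted p at most 0.00299). A gene that rises with all 4 compounds cannot check which compound an array received. C1orf116 was higher by 3.48 with DHT, 2.35 with MPA, 1.59 with PROG and 1.30 with DEX (limma adjusted p at most 2.67e-08). PGR and ESR1 were called lower with MPA and PROG and not called with DEX (limma adjusted p = 0.164 and 0.248). With DHT, ESR1 was called lower at -0.30 (limma adjusted p = 0.0486) and PGR at -0.24 was not called (0.0634). Array medians lay between 3.69 and 3.73, and each of the 11 sterol synthesis probe sets lay above the median of all values on every array. The arrays DHT 1 and DHT 2 were looked at as a pair, chosen after the data were seen. In the deposited table, 54 of 34878 probe sets were highest by more than 0.3 log2 in DHT 1 and DHT 2 alone. By the same margin 0 were lowest there. FDPS probe set 16694176 is 1 of the 54. No other pair of arrays was counted in this way, so whether 54 is unusual is not known. The DHT values of FDPS 16694176 are given with and without DHT 1 and DHT 2.

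Most sterol synthesis genes stayed within a narrow range of their vehicle levels after 6 h. In RNA from whole cultures, fewer expressing cells and less RNA per cell cannot be told apart. Of 44 comparisons of the 11 probe sets with vehicle, 1 passed the test, DHCR7 with MPA (limma fit of 5 group means, Benjamini-Hochberg adjustment over 14841 probe sets within each contrast, threshold 0.05). With MPA 5.93% of all named probe sets were called, 4.11% higher and 1.82% lower, so a single call among 11 is near that background. With PROG 0 of the 11 were called against 2.82% of all (2.43% higher, 0.391% lower). With DHT 0 were called against 0.889% of all (0.775% higher, 0.115% lower), and with DEX 0 against 1.11% of all (0.957% higher, 0.148% lower). At an unadjusted p under 0.05, MPA had 3 of the 11 (DHCR7 higher, IDI1 and STARD4 lower), PROG 0, DHT 3 (FDPS 16694176 higher, SQLE and STARD4 lower) and DEX 1 (INSIG1 higher). Of all 14841 named probe sets, 2589 were under it with MPA, 1727 with PROG, 1469 with DHT and 1546 with DEX. The median log2 difference of the 11 was 0.063 with MPA, 0.020 with PROG, 0.040 with DHT and 0.047 with DEX, against medians of all named probe sets of -0.0033, 0.0, -0.0033 and 0.010 in the same order. Without regard to sign, the median size for the 11 was 0.107 with MPA, 0.047 with PROG, 0.08 with DHT and 0.053 with DEX. For all named probe sets it was 0.067, 0.057, 0.053 and 0.057, so with MPA and DHT the 11 had the larger median size. For the 10 probe sets other than FDPS 16694176, the 95% intervals of the differences from vehicle ran at their widest from 0.786 to 1.23-fold over the 4 compounds. The smallest difference called on these arrays, over all genes, was 0.13 with MPA, 0.14 with PROG and 0.18 with DHT and DEX. The median size of a called difference was 0.34 with MPA, 0.37 with PROG, 0.375 with DHT and 0.34 with DEX. The smallest called size is not a detection limit for every probe set. STARD4 with MPA, at -0.15, was larger in size and not called.

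**Figure D1:**
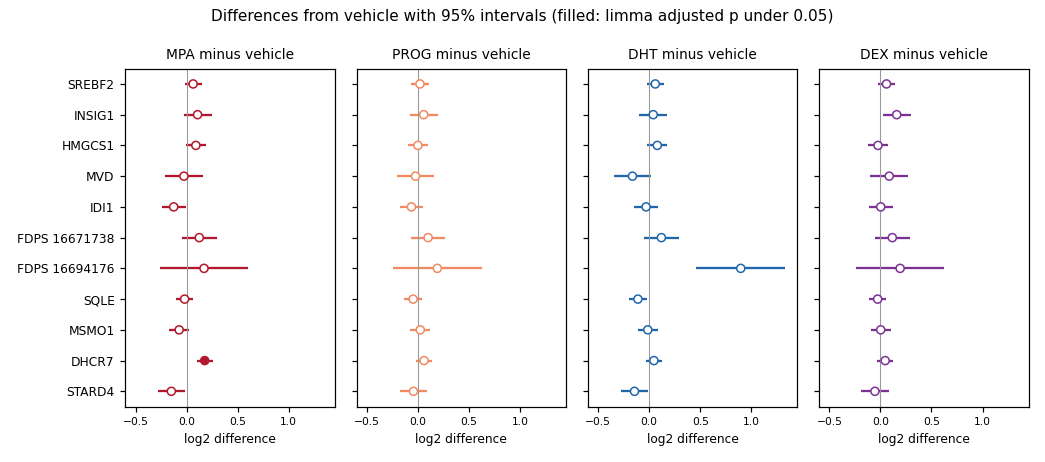
Log2 difference from vehicle of each of the 11 probe sets, compound minus vehicle, in a panel per compound; circles are fitted differences, bars 95% intervals of the limma fit (3 arrays per group), and filled circles passed an adjusted p of 0.05. DHCR7 with MPA at 0.18 is the only filled circle, and FDPS 16694176 with DHT at 0.90 has the largest difference and the widest interval.

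DHCR7, the reductase that makes cholesterol from its last precursor in the pathway, was higher with MPA. Its log2 level was 9.78, 9.74 and 9.72 on the MPA arrays, 9.63 on each of the 3 PROG arrays, 9.58, 9.64 and 9.63 on the DHT arrays, and 9.61, 9.63 and 9.61 on the DEX arrays, against 9.58, 9.59 and 9.54 on the vehicle arrays. All 3 MPA arrays lay above the 12 others. The group means were 9.75 ± 0.031 with MPA and 9.57 ± 0.026 with vehicle (SD, n = 3 each), a difference of 0.18 ± 0.036 (SE) or 1.13-fold (95% interval 1.07 to 1.19, limma adjusted p = 0.00719). The PROG and DEX arrays also lay above all vehicle arrays, at 0.06 ± 0.036 (adjusted p = 0.592) and 0.05 ± 0.036 (adjusted p = 0.719), and the DHT arrays overlapped with them at 0.05 ± 0.036 (adjusted p = 0.737). The MPA call held with each of the 15 arrays left out (adjusted p 0.00921 to 0.036, difference 0.16 to 0.19). It was lost in a fit of only the 6 MPA and vehicle arrays (adjusted p = 0.105), which has fewer arrays from which to estimate the spread.

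Neither regulator of the pathway had a called difference. SREBF2, which encodes the pathway's transcription factor SREBP-2, was at 8.13, 8.13 and 8.18 with MPA, 8.08, 8.14 and 8.09 with PROG, 8.13, 8.20 and 8.10 with DHT, and 8.16, 8.13 and 8.14 with DEX, against 8.06, 8.09 and 8.10 with vehicle. The MPA and DEX arrays lay above all vehicle arrays and the PROG and DHT arrays overlapped with them. The differences from vehicle were 0.06 with MPA, 0.02 with PROG, 0.06 with DHT and 0.06 with DEX, each ± 0.039 (adjusted p 0.447 to 0.907). INSIG1, the endoplasmic reticulum anchor that retains SCAP and is itself an SREBP target, was at 8.74, 8.66 and 8.60 with MPA, 8.66, 8.57 and 8.62 with PROG, 8.45, 8.62 and 8.73 with DHT, and 8.77, 8.65 and 8.74 with DEX, against 8.58, 8.53 and 8.57 with vehicle. Again the MPA and DEX arrays lay above all vehicle arrays, and the DHT arrays spread on both sides of them. The difference was 0.16 ± 0.064 with DEX (95% interval 0.02 to 0.30, adjusted p = 0.381), 0.11 with MPA (adjusted p = 0.429), 0.06 with PROG (adjusted p = 0.817) and 0.04 with DHT (adjusted p = 0.899).

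The early enzymes, which lead to the isoprenoid units, showed no called difference. HMGCS1, the synthase that makes HMG-CoA early in the pathway, was at 8.84, 8.92 and 8.83 with MPA, 8.80, 8.80 and 8.72 with PROG, 8.90, 8.86 and 8.80 with DHT, and 8.75, 8.72 and 8.78 with DEX, against 8.72, 8.80 and 8.80 with vehicle. Only the MPA arrays were clear of vehicle, at 0.09 ± 0.045 (adjusted p = 0.324). DHT stood at 0.08 (adjusted p = 0.613), PROG at 0.0 and DEX at -0.02 (adjusted p = 0.909). MVD, the decarboxylase that yields isopentenyl diphosphate, was at 6.71, 6.74 and 6.85 with MPA, 6.73, 6.79 and 6.79 with PROG, 6.37, 6.76 and 6.76 with DHT, and 6.79, 6.94 and 6.91 with DEX, against 6.79, 6.84 and 6.75 with vehicle. DHT 1 at 6.37 was the lowest of the 15 arrays. MVD with DHT was -0.16 ± 0.086 from vehicle (adjusted p = 0.581), and -0.03 without DHT 1 (adjusted p = 0.935). IDI1, which isomerises isopentenyl diphosphate, was at 7.77, 7.85 and 7.69 with MPA, 7.85, 7.84 and 7.81 with PROG, 7.94, 7.81 and 7.85 with DHT, and 7.82, 7.97 and 7.91 with DEX, against 7.88, 7.86 and 7.95 with vehicle. The MPA and PROG arrays lay below all vehicle arrays and the other groups overlapped with them. The difference was -0.13 ± 0.054 with MPA (95% interval -0.24 to -0.01, adjusted p = 0.231), -0.06 with PROG (adjusted p = 0.737), -0.03 with DHT (adjusted p = 0.915) and 0.0033 with DEX (adjusted p = 0.987).

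FDPS, the synthase of farnesyl diphosphate, from which both squalene and the prenyl groups of proteins are made, was read differently by its probe sets. Probe set 16671738 was at 7.77, 7.82 and 8.01 with MPA, 7.83, 7.85 and 7.85 with PROG, 7.90, 7.81 and 7.88 with DHT, and 7.71, 7.98 and 7.89 with DEX, against 7.89, 7.67 and 7.67 with vehicle. Vehicle 1 lay within the range of the treated arrays, and all groups overlapped with vehicle. The differences were 0.12 with MPA, 0.10 with PROG, 0.12 with DHT and 0.12 with DEX, each ± 0.079 (adjusted p 0.466 to 0.715). Single arrays moved these values: without vehicle 1 they were 0.20, 0.17, 0.19 and 0.19 in the same order, the MPA value was 0.05 without MPA 3, and the DEX value was 0.19 without DEX 1 and 0.06 without DEX 2. Without vehicle 2 or vehicle 3 the PROG value was 0.06, and in none of these fits was a difference called. Probe set 16694176 was at 5.88, 5.62 and 5.88 with MPA, 5.92, 5.94 and 5.58 with PROG, 6.87, 6.79 and 5.90 with DHT, and 5.71, 5.86 and 5.88 with DEX, against 5.84, 5.40 and 5.63 with vehicle. DHT 1 and DHT 2 stood 0.85 above the highest of the 13 other arrays, and DHT 3 was among those. With DHT this probe set averaged 6.52 ± 0.54, against 5.62 ± 0.22 with vehicle (SD, n = 3 each), a difference of 0.90 ± 0.20 (SE) that missed the threshold (95% interval 0.46 to 1.33, adjusted p = 0.0558). It was 0.28 without DHT 1 and DHT 2, which leaves DHT 3 as the only DHT array and assumes that it varies like the arrays of the other groups (adjusted p = 0.794). It was 1.21 without DHT 3 (adjusted p = 0.000504). Without 1 other array at a time it stayed above the threshold (adjusted p up to 0.223). With MPA, PROG and DEX it differed from vehicle by 0.17, 0.19 and 0.19, each ± 0.20 (adjusted p 0.729 to 0.809). Over the 15 arrays the probe sets had a Pearson r of 0.317, a description of arrays that share a normalization. The annotation gives both the same transcript and no probe positions, and RefSeq's gene table lists 10 FDPS pseudogenes. Whether a probe set reads one of these, or a transcript from the opposite strand, was not tested.

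The later enzymes lie between squalene and cholesterol. SQLE, which oxidises squalene in a step known to limit the sterol branch, was at 9.66, 9.69 and 9.71 with MPA, 9.68, 9.67 and 9.63 with PROG, 9.61, 9.53 and 9.65 with DHT, and 9.68, 9.67 and 9.69 with DEX, against 9.70, 9.69 and 9.73 with vehicle. The PROG and DHT arrays lay below all vehicle arrays. The difference was -0.11 ± 0.040 with DHT (95% interval -0.20 to -0.02, adjusted p = 0.327), -0.05 with PROG (adjusted p = 0.738), -0.03 with DEX (adjusted p = 0.874) and -0.02 with MPA (adjusted p = 0.85). MSMO1, which begins the removal of methyl groups from the sterol ring, was at 11.81, 11.88 and 11.84 with MPA, 11.95, 11.91 and 11.96 with PROG, 11.89, 11.92 and 11.90 with DHT, and 11.95, 11.84 and 11.97 with DEX, against 11.97, 11.85 and 11.93 with vehicle. Every treated group overlapped with vehicle, with differences of -0.07 with MPA, 0.02 with PROG, -0.01 with DHT and 0.0033 with DEX, each ± 0.045 (adjusted p 0.451 to 0.987).

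STARD4, a soluble protein that carries cholesterol between membranes, was at 7.86, 8.11 and 7.97 with MPA, 8.09, 8.10 and 8.07 with PROG, 7.95, 7.93 and 8.08 with DHT, and 8.07, 8.04 and 8.12 with DEX, against 8.22, 8.10 and 8.07 with vehicle. Each group overlapped with vehicle in at least 1 array. The difference was -0.15 ± 0.063 with MPA (adjusted p = 0.227), -0.14 with DHT (adjusted p = 0.476), -0.05 with DEX (adjusted p = 0.833) and -0.04 with PROG (adjusted p = 0.869).

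**Figure D2:**
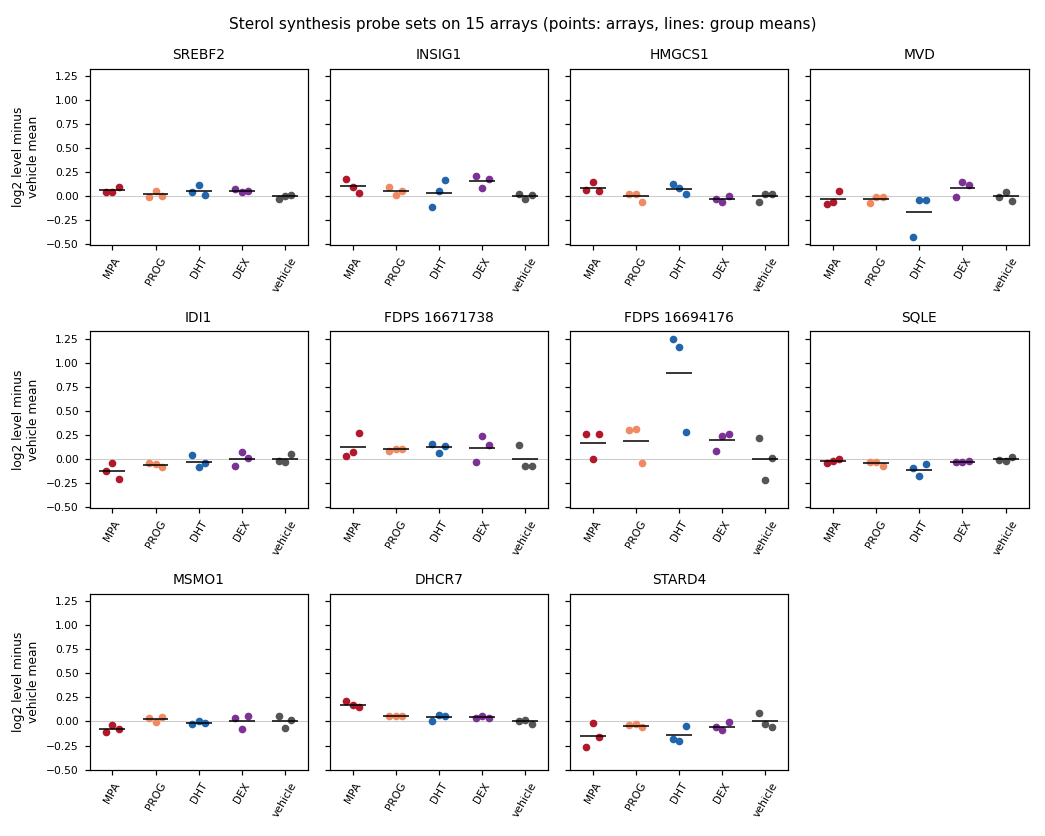
Log2 level minus the vehicle mean (vertical axis, same scale in every panel) of the 11 probe sets on the 15 arrays; points are arrays and lines group means of 3 arrays. FDPS 16694176 on DHT 1 and DHT 2 is the widest departure, DHCR7 is the panel in which the 3 MPA points lie above all others, and MVD shows a single low point at DHT 1.

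A looser measure is whether the arrays of a treatment and of vehicle overlap at all. MPA and vehicle arrays did not overlap for 5 of the 11 probe sets (DHCR7, HMGCS1, INSIG1 and SREBF2 higher, IDI1 lower), against 19.1% of all named probe sets. PROG did not overlap with vehicle for 3 (DHCR7 higher, IDI1 and SQLE lower) against 15.5% of all, DHT for 2 (FDPS 16694176 higher, SQLE lower) against 12.7%, and DEX for 3 (DHCR7, INSIG1 and SREBF2 higher) against 13.6%. The directions were mixed within every treatment. The difference was positive for 6 and negative for 5 probe sets with MPA and with DHT, positive for 6 and negative for 4 with PROG, and positive for 8 and negative for 3 with DEX. The 4 comparisons share the same vehicle arrays. The moderated F test over the 4 differences called 0 of the 11, with DHCR7 at adjusted p = 0.0597 and FDPS 16694176 at adjusted p = 0.0821, and 2 at an unadjusted p under 0.05; over all named probe sets it called 5.13%.

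The 10 genes did not move as a block over the arrays. Among 45 pairs of genes, each taken by its brighter probe set, the Pearson r over the 15 arrays had a median of -0.026, was below 0 for 24 pairs and above 0.5 for 2 pairs. The highest was MSMO1 with STARD4 at 0.602 and the lowest IDI1 with DHCR7 at -0.663. These are descriptions over arrays that share groups and a normalization. The mean of the genes' standardised values was highest on DEX 3 at 0.582 and MPA 2 at 0.425, and lowest on DHT 1 at -0.504 and vehicle 2 at -0.383, so arrays of 1 group lay far apart. Among 8524 protein-coding candidates outside the 10 genes, those most like this mean over the 15 arrays were UBE3C (r = 0.868), HDAC8 (r = 0.848), PNPLA4 (r = 0.834), EGR3 (r = 0.831) and RPS3 (r = 0.811). They are the highest of 8524 correlations over 15 arrays, without a test. The mean also joins genes that did not move together, so the ranking does not show shared regulation.

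The compounds were also set against each other at the same dose and time, in 6 pairs and 66 tests of the 11 probe sets. The test called 0 of the 66, with 11 at an unadjusted p under 0.05 and a lowest adjusted p of 0.0642. Of all 14841 named probe sets, between 1264 (MPA against PROG) and 2278 (MPA against DEX) per pair were under that unadjusted p. MPA is a derivative of progesterone that bears an extra methyl group and an acetoxy group, so MPA against PROG compares related structures. For DHCR7, MPA arrays averaged 9.75 and PROG arrays 9.63, a difference of 0.12 ± 0.036 in which the arrays did not overlap (95% interval 0.04 to 0.19, adjusted p = 0.31). Against PROG the MPA arrays were also clear for HMGCS1 at 0.09 (adjusted p = 0.615) and MSMO1 at -0.10 (adjusted p = 0.59). For the 10 probe sets other than FDPS 16694176 the intervals of MPA against PROG ran at their widest from 0.846 to 1.14-fold, and 0.29% of all probe sets were called in this pair.

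MPA against DHT and DEX gave the lowest adjusted p among the pairs. DHCR7 differed by 0.13 ± 0.036 in both, with averages of 9.75 for MPA, 9.62 for DHT and 9.62 for DEX (adjusted p = 0.0712 against DHT and 0.0642 against DEX), where 3.51% and 4.06% of all probe sets were called. FDPS 16694176 differed by -0.73 between MPA and DHT (adjusted p = 0.0713), by -0.71 between PROG and DHT (adjusted p = 0.137) and by 0.70 between DHT and DEX (adjusted p = 0.192), each ± 0.20. With DHT 3 as the only DHT array these differences were -0.11, -0.09 and 0.08 (adjusted p = 0.947, 1.0 and 0.999). PROG against DHT called 1.71% of all probe sets, PROG against DEX 1.42% and DHT against DEX 0.654%. MVD averaged 6.63 with DHT and 6.88 with DEX, a difference of -0.25 ± 0.086 (95% interval -0.43 to -0.07, adjusted p = 0.315), which was -0.12 without DHT 1 (adjusted p = 0.682). HMGCS1 was 0.11 higher on average with MPA than with DEX (adjusted p = 0.229) and 0.10 higher on average with DHT than with DEX (adjusted p = 0.482). Over these 5 pairs and the same 10 probe sets the intervals lay within 0.74 to 1.25-fold.

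Other genes of the same system give the setting. Of 17 other sterol synthesis enzymes, 10 had a named probe set (ACAT2, MVK, PMVK, IDI2, TM7SF2, LBR, NSDHL, HSD17B7, ERG28 and EBP). In each of the 4 comparisons with vehicle 0 of the 10 were called. Of all named probe sets 5.93% were called with MPA, 2.82% with PROG, 0.889% with DHT and 1.11% with DEX, so 0 of 10 is near that background. IDI2 averaged 3.28, below the median of all values (3.7). Of the 10 enzymes, 3 with MPA, 0 with PROG, 1 with DHT and 1 with DEX had an unadjusted p under 0.05. Their median differences were 0.055 with MPA, 0.0 with PROG, 0.013 with DHT and 0.057 with DEX. With MPA they ran from -0.13 for LBR, a sterol reductase of the nuclear envelope (adjusted p = 0.138), to 0.12 for the mevalonate pathway kinase gene PMVK (adjusted p = 0.275). Of 11 genes of the isoprenoid branch 4 were measured and 0 were called, against the same shares of all named probe sets. At an unadjusted p under 0.05 were 1, 0, 0 and 0 for MPA, PROG, DHT and DEX.

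**Figure D3:**
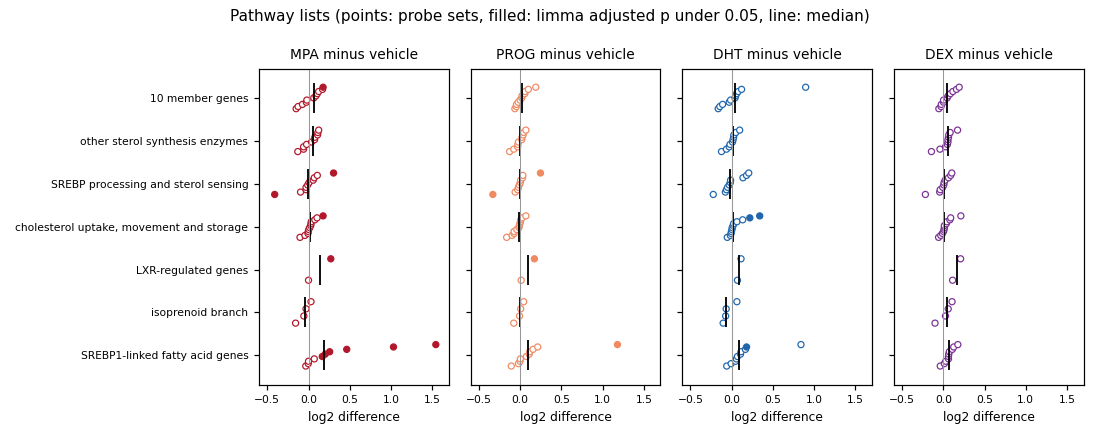
Log2 differences from vehicle (horizontal axis) of the 10 genes and of 6 lists of related genes, in a panel per compound; points are probe sets, filled where the adjusted p is under 0.05, and vertical lines list medians. Of the 10 genes only DHCR7 with MPA is filled and FDPS 16694176 with DHT lies far from the rest at 0.90; none of the other sterol synthesis enzymes is filled in any panel.

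Among genes that control SREBP processing, SCAP was called higher and INSIG2 called lower with both progestins. Of 14 such genes 10 were measured, and these were the 2 called with MPA, where 5.93% of all named probe sets were called, and with PROG, where 2.82% were. With DHT and DEX 0 were called (3 and 2 at an unadjusted p under 0.05), against 0.889% and 1.11% of all. SCAP, the sterol-sensing escort of SREBP, was at 8.0, 7.89 and 7.99 with MPA, 7.86, 7.92 and 7.93 with PROG, 7.86, 7.85 and 7.80 with DHT, and 7.75, 7.73 and 7.76 with DEX, against 7.55, 7.64 and 7.78 with vehicle. The MPA, PROG and DHT arrays lay above all vehicle arrays. It rose by 0.30 ± 0.054 with MPA (adjusted p = 0.0026) and by 0.25 ± 0.054 with PROG (adjusted p = 0.0228), and stood at 0.18 with DHT (adjusted p = 0.205) and 0.09 with DEX (adjusted p = 0.627). The MPA call held with each array left out; the PROG call was lost without vehicle 1 (adjusted p = 0.0983), vehicle 2 (0.0842), PROG 2 (0.0969) or PROG 3 (0.09) and with quantile normalization (0.0557).

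INSIG2, the close relative of INSIG1 that likewise holds SCAP back, was at 7.24, 7.20 and 7.21 with MPA, 7.24, 7.31 and 7.34 with PROG, 7.40, 7.31 and 7.50 with DHT, and 7.35, 7.51 and 7.37 with DEX, against 7.74, 7.51 and 7.63 with vehicle. The MPA, PROG and DHT arrays lay below all vehicle arrays and DEX 2 touched the lowest of them. It fell by 0.41 ± 0.065 on the log2 scale with MPA (adjusted p = 9.53e-04), with each array left out as well, and dropped by 0.33 ± 0.065 with PROG (adjusted p = 0.0107). The PROG call was lost without vehicle 1 (adjusted p = 0.0541) or PROG 1 (0.0564). With DHT and DEX it stood at -0.22 each (adjusted p = 0.171 and 0.186). Set directly against DHT, neither SCAP nor INSIG2 was called with MPA (adjusted p = 0.314 and 0.176) or PROG (0.802 and 0.676). Against DEX, SCAP was called with MPA (adjusted p = 0.042) and kept the call in 3 of 15 fits with an array left out. INSIG2 was not called for MPA against DEX (0.142), nor was either gene for PROG against DEX (0.28 and 0.628). INSIG1 in the same arrays was 0.11 with MPA and 0.06 with PROG, neither called. SREBF1, the gene of the fatty acid regulator SREBP-1, differed from vehicle by 0.21 ± 0.054 with DHT (adjusted p = 0.113) and by at most 0.07 with the others.

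Among genes of cholesterol uptake, movement and storage, 12 of 18 were measured. SOAT2 at 2.99, STARD6 at 3.22 and STAR at 2.82 averaged below the median of all values (3.7). With MPA 1 was called higher (STARD3), against 4.11% of all named probe sets. With DHT 2 were called higher (MYLIP and NCEH1), against 0.775% of all. With PROG and DEX 0 were called higher (0 and 1 at an unadjusted p under 0.05), against 2.43% and 0.957% of all, and 0 were called lower with any compound. MYLIP, the ubiquitin ligase that sends the LDL receptor to degradation, was at 8.17, 8.12 and 8.21 with MPA, 8.09, 8.0 and 7.98 with PROG, 8.36, 8.34 and 8.51 with DHT, and 8.23, 8.31 and 8.29 with DEX, against 8.09, 8.07 and 8.03 with vehicle. The DHT arrays were the 3 highest of the 15. It rose by 0.34 ± 0.052 with DHT (adjusted p = 0.00436), with each array left out as well, and stood at 0.21 with DEX (adjusted p = 0.0735). Between compounds MYLIP differed by -0.38 ± 0.052 for PROG against DHT (means 8.02 and 8.40, adjusted p = 7.4e-04), with each array left out as well. STARD3, a late endosomal sterol transfer protein, rose by 0.18 ± 0.042 with MPA (adjusted p = 0.0196), a call lost without vehicle 1 (adjusted p = 0.0509), vehicle 2 (0.0839) or MPA 3 (0.0832). NCEH1, a cholesteryl ester hydrolase, was called at 0.22 ± 0.048 with DHT (adjusted p = 0.0487), and the call was lost whichever of the 15 arrays was left out (adjusted p 0.0592 to 0.179). Between compounds NCEH1 was called higher with DHT than with DEX (limma adjusted p = 0.0137), PROG (0.0196) and MPA (0.027). These calls held in 14, 12 and 11 of the 15 fits with an array left out. Each was lost in the fit of only the 6 arrays compared (adjusted p 0.159 to 0.18).

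Of 8 genes regulated by the oxysterol receptors LXR, 2 were measured, LPCAT3 and APOE. LPCAT3 was called with MPA, where 5.93% of all named probe sets were called, and with PROG, where 2.82% were. APOE averaged 3.35 over the 15 arrays, below the median of all values (3.7). LPCAT3, which remodels phospholipids of the endoplasmic reticulum, was at 12.00, 11.99 and 11.96 with MPA, 11.88, 11.90 and 11.88 with PROG, 11.81, 11.84 and 11.83 with DHT, and 11.80, 11.84 and 11.84 with DEX, against 11.73, 11.70 and 11.71 with vehicle. Every treated array lay above every vehicle array. It rose by 0.27 ± 0.034 with MPA (adjusted p = 1.31e-04), also with each array left out, and by 0.17 ± 0.034 with PROG (adjusted p = 0.0114). The PROG call was lost without PROG 2 (adjusted p = 0.0579) and with quantile normalization (0.0565). With DHT and DEX it stood at 0.11 each (adjusted p = 0.208 and 0.193).

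**Figure D4:**
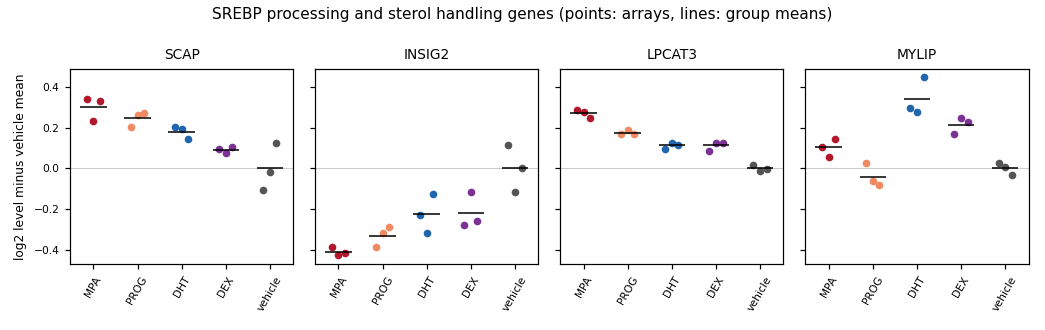
Log2 level minus the vehicle mean (vertical axis) of SCAP, INSIG2, LPCAT3 and MYLIP on the 15 arrays; points are arrays and lines group means of 3 arrays. SCAP and LPCAT3 are highest and INSIG2 lowest with MPA, and MYLIP is highest with DHT.

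Of 11 SREBP-1-linked fatty acid genes 10 were measured. With MPA 6 of the 10 were called higher and 0 lower (median difference 0.185), against 4.11% higher and 1.82% lower of all named probe sets. With PROG 1 was called higher against 2.43% of all, with DHT 1 higher against 0.775%, and with DEX 0 (3 at an unadjusted p under 0.05) against 0.957%. With MPA the desaturase gene SCD was at 12.88, 12.76 and 12.77, against 12.56, 12.54 and 12.54 with vehicle, a rise of 0.26 ± 0.042 (adjusted p = 0.00127). FADS1, a desaturase of polyunsaturated fatty acids, was at 8.81, 8.85 and 8.84 with MPA, against 8.36, 8.43 and 8.32 with vehicle, a rise of 0.46 ± 0.066 (adjusted p = 3.56e-04). THRSP, a regulator of lipid synthesis, was at 5.44, 6.24 and 6.54 with MPA, against 4.99, 5.10 and 5.04 with vehicle, a rise of 1.03 ± 0.19 (adjusted p = 0.00327). In these 3 genes the MPA arrays lay above all vehicle arrays, and the MPA calls held with each array left out. Other compounds also stood above vehicle for these genes, though none of those differences was called. THRSP was at 5.91, 5.92 and 5.82 with DHT, above all vehicle arrays and above MPA 1. For SCD every treated array lay above every vehicle array, the lowest being DEX 1 at 12.64. For FADS1 the PROG arrays (8.57, 8.50 and 8.68) and DEX arrays (8.50, 8.51 and 8.63) lay above vehicle, and the DHT arrays overlapped with it. The acyl-CoA synthetase gene ACSL1 was the largest with MPA, 9.20, 9.17 and 9.14 against 7.63, 7.68 and 7.57 with vehicle, and was also the gene called with PROG, at 8.84, 8.86 and 8.72. FASN and FADS2 were called with MPA at 0.17 and 0.20 (adjusted p = 0.0439 and 0.0415), and each kept the call in 3 of the 15 fits with an array left out (FASN without vehicle 3, PROG 1 or DEX 1, FADS2 without PROG 3, DEX 1 or DEX 2; highest adjusted p otherwise 0.15 and 0.164). ACACA was the gene called with DHT, at 0.18 (adjusted p = 0.0344), and lost the call without any 1 of vehicle 1, vehicle 2, vehicle 3, PROG 1, DHT 2, DHT 3, DEX 2 and DEX 3 (adjusted p up to 0.138). Whether these lists differ from the sterol enzymes was not tested.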

How the data were processed

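A single table of 34878 probe sets on 15 arrays was used. The authors deposited log2 values, and the submitters' processing notes name RMA and Partek. Their versions, settings and genome build were not given in the sources used here. As a method, RMA summarises probes on the log2 scale, can compress differences of dim probe sets and removes shifts common to most genes. The platform annotation gave 1 symbol for 14841 probe sets, 0 had several and 20037 were unnamed; symbols were updated through RefSeq identifiers.

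Values were used as deposited. The lmFit and eBayes functions of limma 3.58.1 (R 4.3.3; 10 residual and 3.81 prior degrees of freedom) fitted 5 group means over all 15 arrays, with 10 contrasts and an F test over the 4 against vehicle, 2-sided, Benjamini-Hochberg adjustment within each and a threshold of 0.05. Each adjusted p in the text comes from such limma fits, and intervals are 95% intervals. The number of arrays limits the precision. The fit was tested on simulated data.

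The 10 genes and the lists of related genes were chosen with earlier results of these data known. All 11 probe sets are described; of the lists, up to 5 called genes each may be named by size, and FASN, LBR, PMVK and SREBF1 were added after their values were seen. Alternatives were all probe sets tested, a filter on dim probe sets, quantile normalization, median centring, eBayes with trend and robust, array weights, only the 6 arrays compared, a replicate block, and each array left out; leaving out DHT 1 and DHT 2 together was chosen after seeing the data.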

Additional observations from a re-analysis of the deposited data

Results flagged for a closer look

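On DHT 1 and DHT 2, a pair chosen after the data were seen, probe sets outside the named ones were also high. Other pairs of arrays were not counted. In all, 54 probe sets were highest by more than 0.3 log2 on these arrays alone, and 38 of them have no gene symbol here and entered no comparison of the report. The other 16 are of 14 named genes, FDPS among them through probe set 16694176. For the 54 the median gap between DHT 1 and DHT 2 and the third DHT array was 0.797 on the log2 scale. The part of this pair of arrays in the DHT value of FDPS 16694176 was not tested beyond leaving them out.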

How the results depend on the processing

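Over 2574 recomputed differences of the 11 probe sets (110 results, each under the alternatives of the fit), 2561 kept their side of the threshold, 1 lost a call and 12 gained one, and 0 called differences turned direction; 72 uncalled differences, none above 0.12 in size in the reported fit, changed sign. The number of called probe sets for MPA against vehicle was 0 instead of 1 in the fit of only the 6 arrays, which has fewer samples. For DHT against vehicle it was 1 instead of 0 with the filter on dim probe sets, with trend and robust, and with array weights (FDPS 16694176 in each, adjusted p = 0.0412, 0.0203 and 0.0405). For MPA against DHT it was 1 with the dim filter and 2 with trend and robust, for MPA against DEX 1 with either, and for the F test 1 with the dim filter and 2 with trend and robust, always 0 in the reported fit. The dim filter tests fewer probe sets; for the others the cause was not tested. With 1 array left out, the number ranged from 0 to 1 for DHT against vehicle, MPA against DHT, PROG against DHT, DHT against DEX and the F test, with 1 reached without DHT 3, where the called probe set is FDPS 16694176. The calls of SCAP and THRSP with MPA and of MYLIP with DHT were lost in the fits of only the 6 arrays compared (adjusted p = 0.0679, 0.0784 and 0.0951), and those of SCAP, INSIG2, LPCAT3 and STARD3 named in the text as lost without an array were lost there as well (adjusted p 0.0689 to 0.17). The calls of FADS2 and FASN with MPA and of NCEH1 with DHT were lost under quantile normalization (0.0784, 0.0598 and 0.0637), median centring (0.0685, 0.0686 and 0.0544), array weights (0.0612, 0.0705 and 0.058) and with all probe sets tested (0.0692, 0.0782 and 0.0896), and FADS2 also with trend and robust (0.053); ACACA with DHT was lost with all probe sets tested (0.0747). All 4 were lost in the fits of only the 6 arrays (0.114 to 0.299), and without DHT 1 and DHT 2 the DHT calls of NCEH1 and ACACA were lost (0.0735 and 0.236). With the replicate number as a block the number called was 1 for MPA against vehicle (DHCR7, adjusted p = 0.0154) and 0 in every other comparison, as in the reported fit, while NCEH1 and ACACA with DHT lost their calls (0.0514 and 0.0555). Same-numbered arrays of different groups did not deviate together, with correlations of their deviations from the group means between -0.054 and 0.067 over 30 pairs, so the numbers were not taken as pairs. Detection calls were not used here, so how far a probe set lay above background is known only as its level against the median of all values.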
